A study of Mus musculus with 2 samples.

Results

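The genes described here are 39 genes of fatty acid oxidation and of the PPAR alpha programme. They were taken from both array files as every non-control row whose gene name is on a given list, all probes included. All 39 were on the array, with 52 probes at 88 spots, among 26582 gene names in all, and all 39 had a probe bright enough to be tested, as had 18988 genes in all. The list was not made from the ratios of these arrays, but it was proposed with results of these data known.

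The study hybridised total RNA of the intestine of C57BL/6 mice lacking Gpcpd1 in the gut (also called GDE5, a glycerophosphodiester phosphodiesterase) against RNA of wild-type mice. The mice were male, 20 weeks old and on a normal diet in both groups. Each of the 2 arrays held both genotypes, with the dyes exchanged. In replicate 1 the knockout RNA carried Cy3, and in replicate 2 it carried Cy5. The series text speaks of 5 mice; whether the RNA was pooled, whether the arrays share extracts, which promoter drove the deletion and which part of the gene was deleted are not given in the sources used here. A p-value here therefore reads the scatter of 2 hybridisations against each other, which can be purely technical, and with so few arrays every value is imprecise.

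Fatty acids enter mitochondria as carnitine esters and are shortened there by repeated rounds of dehydrogenation, hydration, dehydrogenation and thiolysis, while very long and branched chains are first shortened in peroxisomes. PPAR alpha is a nuclear receptor that fatty acids and their derivatives activate, and many genes of both routes are its targets. In the small intestine it is expressed in enterocytes, where dietary lipid is known to raise its target genes.

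Each value is a log2 ratio of knockout over wild type, and pairs are always given as replicate 1 and then replicate 2. The first 30 of 60 bases are shown for probes on which the results turn: Acot12 and Ppargc1a, the members with the highest mean ratios, and the probe pairs of Cyp4a10 and of Hadha, which gave unlike ratios for 1 gene. Positions are those of mm9 in the array files.
Acot12 probe (chr13:91925586-91925645, plus strand): acatagacagtatggactccagtttgcagg
Ppargc1a probe (chr5:51848928-51848987, minus strand): ccccttcaaatggcagcatttccatgaaga
Cyp4a10 brighter probe (chr4:115198154-115198213, plus strand): acactcatgttcgagggccatgacaccaca
Cyp4a10 dimmer probe (chr4:115206200-115206259, plus strand): acgagtttctccatcttccctcctttctgc
Hadha brighter probe (chr5:30446215-30446274, minus strand): ggaagcaggaaaaagaccaaggctagcctt
Hadha dimmer probe (chr5:30480638-30480697, minus strand): cccaaatctgtaagggcaaatgtaacttca

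The arrays were alike in brightness. Between 69.3% and 76.1% of gene spots were well above background in a channel, the median raw signal lay between 98.7 and 106, and no gene spot was saturated. Gpcpd1 itself showed no drop in the RNA labelled knockout. Of its 4 probes, 3 gave higher ratios on both arrays (0.65 and 0.29, 0.67 and 0.56, 0.28 and 1.08) and 1 gave -0.43 and 0.17. Where these probes lie relative to the deleted part is unknown, so nothing but the dye labels gives the directions below. Markers of the absorptive cell were bright, and 14 of 14 were tested, with 5 higher and 4 lower on both arrays and a median of -0.02. Of the markers of skeletal muscle, 12 of 17 tested were higher on both arrays and 2 lower. Among the higher ones, Myh1, Pvalb, Xirp2, Myoz1, Actn3 and Mb passed the brightness filter only through the knockout RNA. Their direction was thus partly set by the filter, and their count is no separate evidence. The summed log2 level of the muscle markers was 12.43 and 12.30 in the knockout RNA against 11.68 and 11.64 in the wild-type RNA. The myosin heavy chains Myh8 (2.11 and 2.09) and Myh4 (2.02 and 2.35) were furthest apart. Not all muscle markers went that way: Ckm (-0.01 and -0.13) and Acta1 (-0.13 and -0.0062) were lower, and Atp2a1, Mylpf and Tcap had opposite signs. Of the Paneth cell markers 4 of 5 tested were lower on both arrays and 0 higher. Of the hepatocyte markers 5 of 7 were lower and 2 higher, with Tat at -1.14 and -0.99. Some hepatocyte markers of either direction were close to background, with background-subtracted signals down to 12.4. Beside these counts, 16.9% of all genes tested were higher on both arrays and 18.1% lower. Of the kidney markers 3 of 5 tested were higher on both arrays and 0 lower, with a median of 0.07. Kap, at 1.37 and 1.47, was the 1 kidney marker at least 1.5-fold apart on both arrays. Besides Kap, the higher ones were Umod and Slc22a6, both close to background, with background-subtracted signals from 6.23 to 21.4. Muscle, liver and kidney also express fatty acid oxidation genes, and the part of other cell types in the members' ratios was not tested. In a tissue extract, fewer cells of a type and less RNA per cell cannot be told apart.

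The ratio of the dyes also depended on where a spot lay. The array has 532 rows and 85 columns of spots. After loess (a fit of the dye ratio against brightness over the whole array), the median of Cy5 over Cy3 was -0.18 on replicate 1 and -0.15 on replicate 2 in rows 1 to 114, against 0.03 and 0.02 in all rows beneath. The offset reached further on replicate 1, where rows 115 to 133 were at -0.21 and rows 134 to 152 at -0.15, and it returned at the lower edge, where rows 514 to 532 were at -0.13 and -0.15. Among spots whose 2 raw signals summed to over 2000, the medians in rows 1 to 114 were -0.47 and -0.46. Because the dyes were exchanged, such an offset appears as a positive ratio of knockout over wild type in replicate 1 and a negative one in replicate 2. Of the 35 members with 1 spot for the reported probe, 14 lie in rows 1 to 152 or 495 to 532, the bands with a median under -0.05 on at least 1 array. Of those 14, 12 went that way: Cpt2, Slc25a20, Acadvl, Acadl, Hadha, Hadh, Etfa, Etfdh, Hsd17b4, Acot1, Angptl4 and Cyp4a10. Echs1 and Decr2 were positive on both arrays. Of the 21 members in the rows between, 5 went that way. The bands were chosen by the dye ratio of all gene spots, so spots in them lean that way by choice. The share of all gene spots there that went that way was not counted. For this reason a second ratio is given for the members, from a loess fit within each block of 19 rows by 29 columns, a choice made after the data were seen. It is called the block ratio below.

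**Figure D1:**
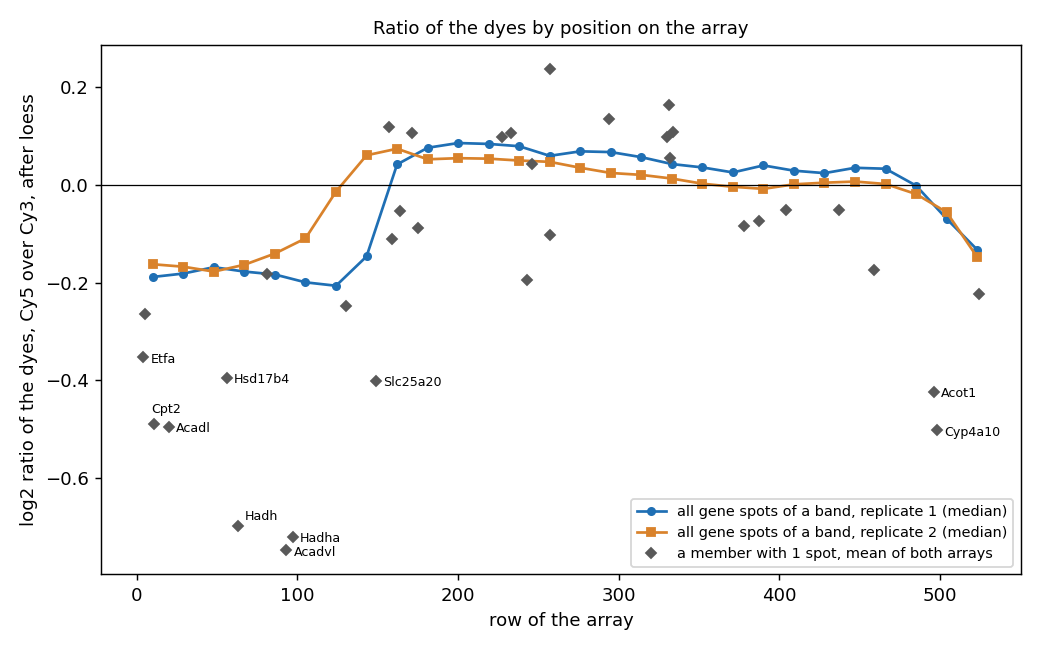
Median log2 ratio of Cy5 over Cy3 after loess in bands of 19 rows of the array, for each replicate (lines), and the same ratio averaged over both arrays for each member with 1 spot (grey diamonds). The bands of the first 114 rows lie below 0 on both arrays, and Hadh, Hadha and Acadvl lie furthest below it.

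No member passed the test. Limma called 0 of 39 members at an adjusted p of 0.05, and 0 of all 18988 genes (0%), with the smallest adjusted p at 0.453. At an unadjusted p under 0.05 it marked 1 member, Acot12, and 236 genes (1.24%). With block ratios it called 10 genes (0.0527%) and again 0 members, while 4 members had an unadjusted p under 0.05, against 675 genes (3.55%). Those 4 were Acot12, Ppargc1a and Decr2, all higher in the knockout RNA, and Acox2, which was lower.

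By direction, 7 members were higher on both arrays, 9 were lower on both and 23 had opposite signs. The corresponding shares are 17.9% higher and 23.1% lower, against 16.9%, 18.1% and 64.9% (opposite) of all genes. With block ratios the counts were 8 higher, 11 lower and 20 opposite, or 20.5%, 28.2% and 51.3%, against 19.7%, 19.4% and 60.9% of all genes. The share that was higher is thus close to that of the array as a whole under both fits, and the share that was lower is above it by more with block ratios. On the processed ratios of the scanner software, 8 members were higher, 15 lower and 16 opposite, against 20.2%, 21.1% and 58.7% of all genes, so there the share of members that were lower (38.5%) was above that of all genes. The median of the members was -0.03 (0.07 on replicate 1 and -0.18 on replicate 2), beside -0.01 over all genes. The block median was -0.04, beside -0.0036 over all genes. Of the 39 means, 18 lay within 0.1 of 0, and 28 members had an SD between the arrays above the size of their mean.

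In size, 0 members were at least 1.5-fold apart in 1 genotype direction on both arrays, where 0.216% of all genes were (0.158% higher and 0.0579% lower). In contrast, 3 members (Acadvl, Hadh and Hadha) differed by 1.5-fold or more with 1 dye brighter on both arrays, where 1.05% of all genes were. With block ratios 0 members and 0.0421% of all genes were, so this difference was not seen once the position on the array was fitted. Across all genes the ratios of the arrays had a Pearson correlation of -0.38, and -0.05 as block ratios, a description over genes that are not independent replicates.

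**Figure D2:**
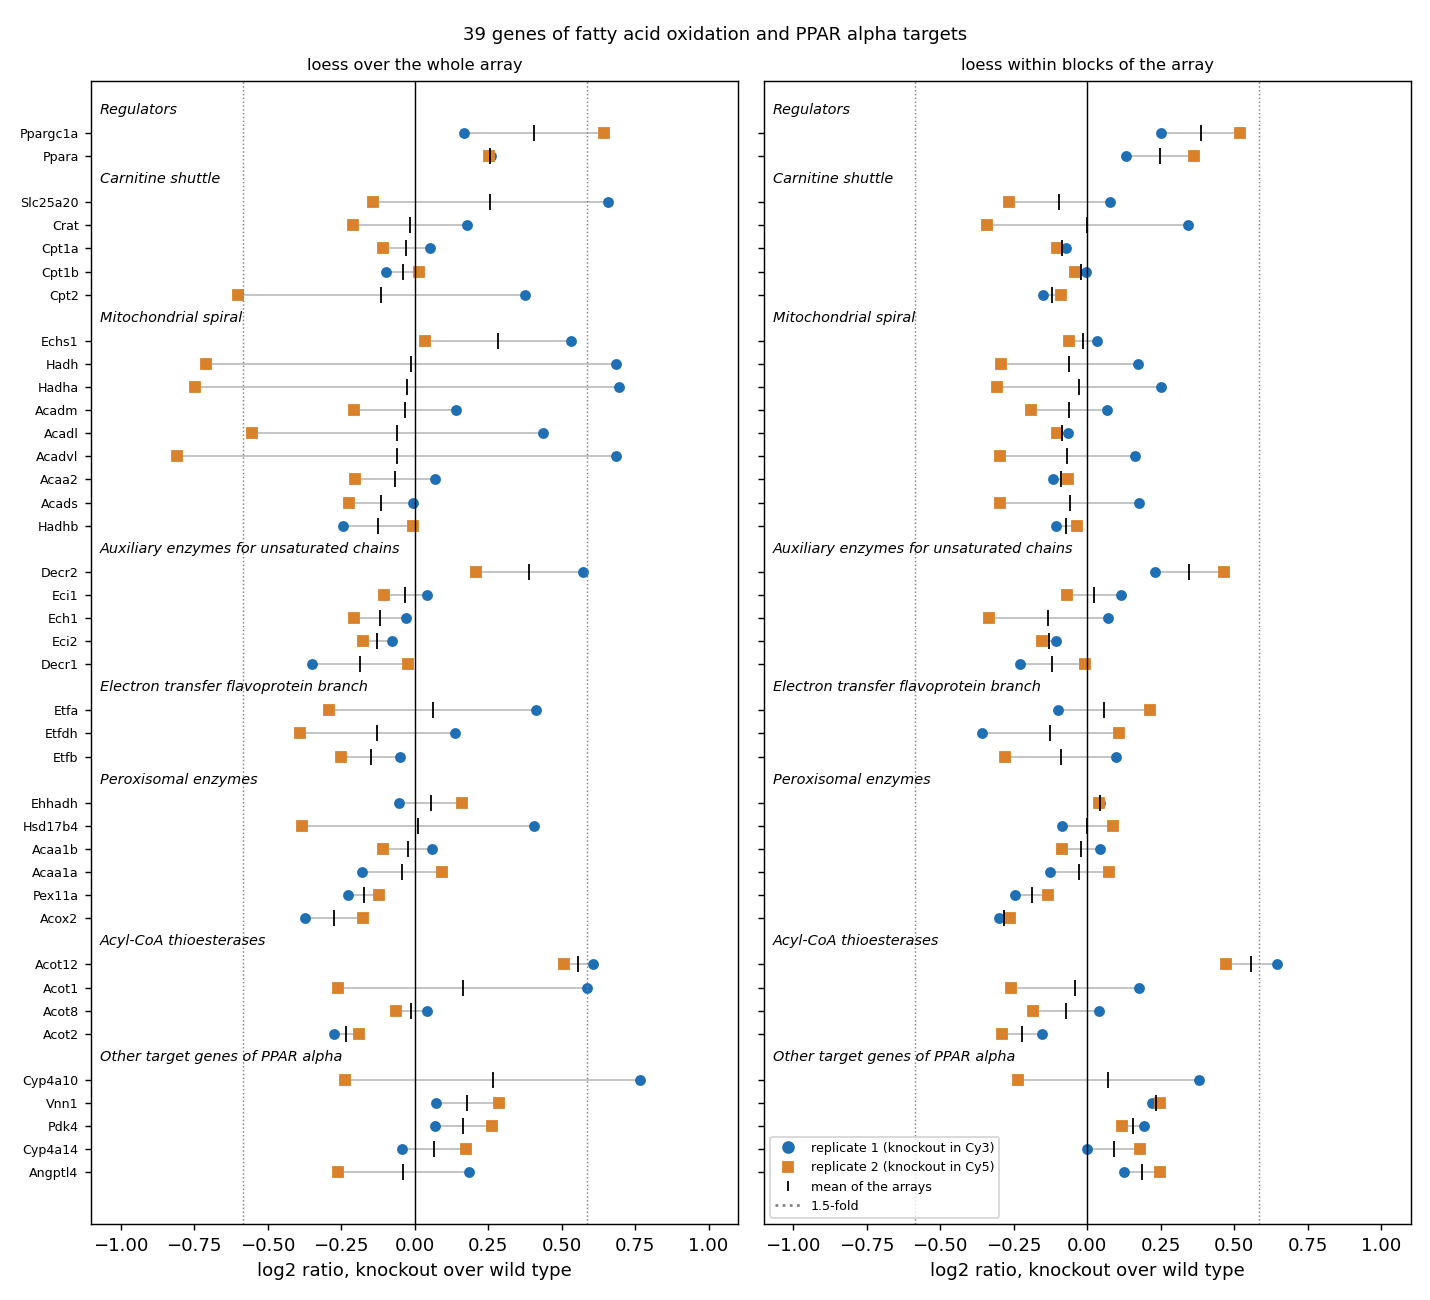
Log2 ratio of knockout over wild type for each of the 39 members on replicate 1 (circle) and replicate 2 (square), with their mean (bar), after loess over the whole array (left) and within blocks (right). The wide pairs of Hadh, Hadha, Acadvl, Acadl and Cpt2 on the left are narrower on the right, and the pair of Acot12 lies to the right of 0 in both panels.

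**Figure D3:**
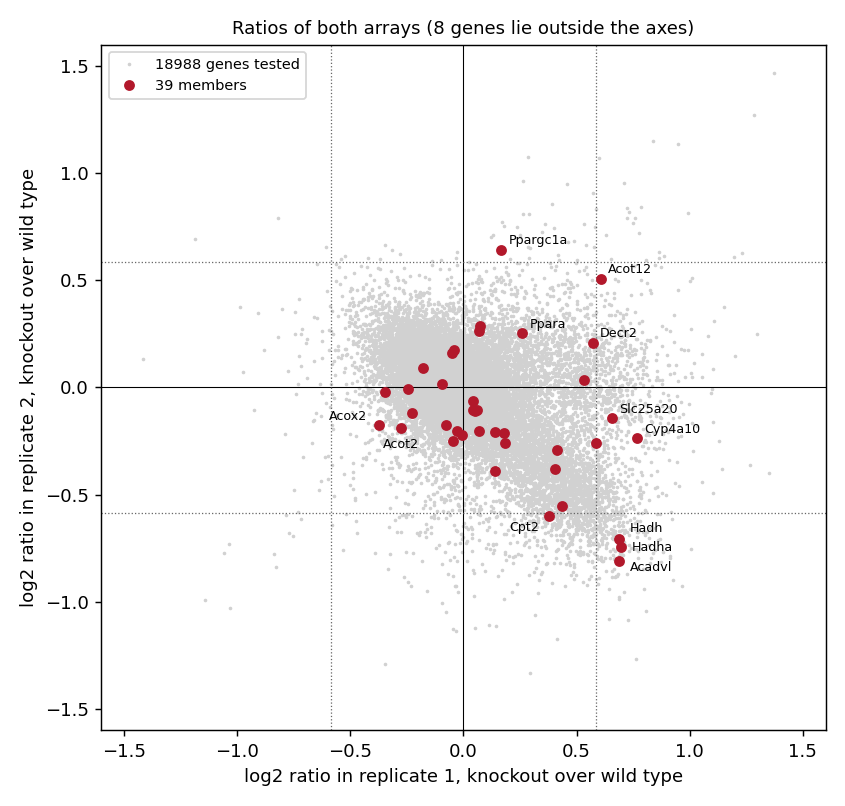
Log2 ratio in replicate 2 against that in replicate 1 for 18988 genes (grey) and the 39 members (red), with dotted lines at 1.5-fold. Acadvl, Hadh and Hadha lie beyond the lines at the lower right, the corner of a dye direction, no member lies beyond them at the upper right or lower left, and 8 genes fall outside the axes.

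The regulators were both higher on both arrays, without passing the test. Ppara, the receptor itself, has a probe at 10 spots of each array and gave 0.26 and 0.25. The block ratios of Ppara were 0.13 and 0.36, with a 95% interval from -0.02 to 0.51. Its 10 spots differed more than those means show: the 9 used spots of replicate 1 ran from -0.17 to 0.75 with a median of 0.06, and those of replicate 2 from -0.09 to 0.49 with a median of 0.33. Within blocks the medians were 0.07 and 0.33, and 1 spot at 0.77 stood apart on replicate 1. Without the furthest spot of each array, left out after the data were seen, the block ratios of Ppara were 0.05 and 0.34. So the near-equal means of the arrays were not seen in the spots themselves.

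Ppargc1a encodes PGC-1 alpha, a coactivator of PPAR alpha that drives mitochondrial gene expression. It gave 0.17 and 0.64, with a mean of 0.40 ± 0.34 (SD, n = 2 arrays). The block ratios of Ppargc1a were 0.25 and 0.52, with an adjusted p of 0.956 in limma. A second, dimmer probe of the same gene gave -0.03 and 0.15, so only the brighter probe was higher on both arrays.

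**Figure D4:**
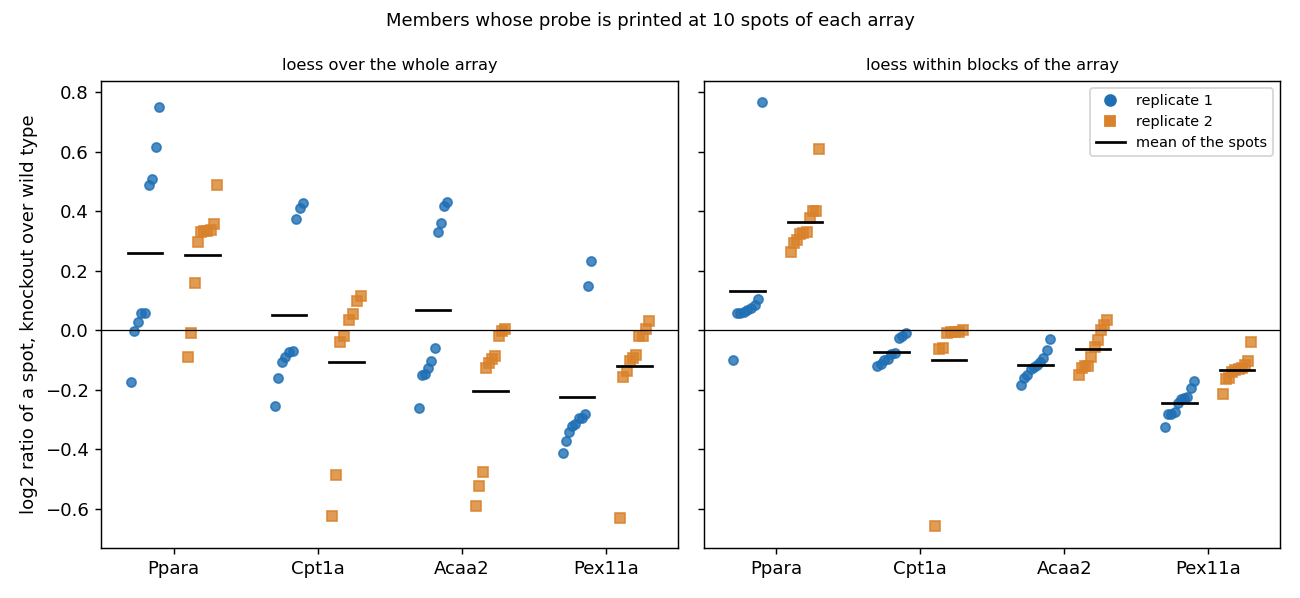
Log2 ratio of knockout over wild type at each used spot of the 4 members whose probe is printed 10 times, for replicate 1 (circles) and replicate 2 (squares), with the mean of the spots (bar), after loess over the whole array (left) and within blocks (right). On the left each gene splits into separate groups of spots on at least 1 array, and on the right most spots of an array lie close together, except 1 high spot of Ppara on each array and 1 low spot of Cpt1a.

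None of the 5 genes of the carnitine shuttle lay the same way on both arrays after loess over the whole array. Cpt1a, the isoform of liver and gut that commits fatty acyl-CoA to the mitochondrion, gave 0.05 and -0.11 over the 9 and 8 used of its 10 spots. The spots of Cpt1a in replicate 1 reached from -0.25 to 0.43, and within blocks from -0.12 to -0.01. As block ratios Cpt1a was at -0.07 and -0.10, and the 95% interval, -0.33 to 0.16, spans 0. The value of replicate 2 rests on 1 spot at -0.66 in row 116, while its other used spots ran from -0.06 to 0.0012. Without the furthest spot of each array the block ratios of Cpt1a were -0.08 and -0.02, and their mean was -0.05 in place of -0.09. Its second probe gave -0.05 and -0.23.

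Cpt1b, the muscle isoform, gave -0.10 and 0.01 (block ratios -0.0033 and -0.04), and its second probe 0.30 and -0.25 (0.15 and -0.08). Cpt2, which returns the acyl group to CoA inside the mitochondrion, gave 0.38 and -0.60 in row 11, and -0.15 and -0.09 as block ratios. Slc25a20, the carnitine-acylcarnitine carrier of the inner membrane, gave 0.66 and -0.14 in row 149, and 0.08 and -0.27 as block ratios. Crat, which makes acetylcarnitine, gave 0.18 and -0.21, and kept opposite signs as block ratios (0.34 and -0.34). As block ratios Cpt1a, Cpt1b and Cpt2 were below 0 on both arrays and the other two had opposite signs. The block median of the shuttle was that of Cpt1a, -0.09, or -0.05 without its furthest spots.

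The mitochondrial spiral held 9 members, with 1 higher on both arrays, 2 lower and 6 opposite. The acyl-CoA dehydrogenases carry out the first step, each for its own chain length. Acadvl, for very long chains, gave 0.69 and -0.81, the widest pair of the list, and Acadl, for long chains, gave 0.44 and -0.55. Acadm, for medium chains, gave 0.14 and -0.21, and Acads, for short chains, gave -0.0043 and -0.22. As block ratios the pair of Acadvl was 0.16 and -0.30, that of Acadl -0.07 and -0.10, that of Acadm 0.07 and -0.19, and that of Acads 0.18 and -0.30. No dehydrogenase had a block mean further from 0 than the -0.08 of Acadl.

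Hadha and Hadhb form the trifunctional protein, which takes long chains through the remaining steps. Hadha gave 0.69 and -0.75 with its brighter probe, which lies in row 97, and 0.32 and 0.10 with the dimmer one printed above. As block ratios the brighter Hadha probe was at 0.25 and -0.31 and the dimmer at -0.12 and -0.05. The partner subunit Hadhb gave -0.24 and -0.0068, and -0.11 and -0.04 as block ratios.

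Of the enzymes for shorter chains, Hadh, a hydroxyacyl-CoA dehydrogenase, gave 0.69 and -0.71, and 0.17 and -0.29 as block ratios. Echs1, a short-chain enoyl-CoA hydratase, was the member of the spiral that was higher on both arrays, at 0.53 and 0.04. It lies in row 130, and as block ratios it was at 0.03 and -0.06, so its mean turned from 0.28 to -0.01. Acaa2, a thiolase, gave 0.07 and -0.20 over 10 spots, and -0.12 and -0.06 as block ratios. Within blocks the SD between the 10 spots of Acaa2 fell from 0.277 to 0.0451 on replicate 1 and from 0.232 to 0.0665 on replicate 2.

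The auxiliary enzymes move or remove the double bonds of unsaturated chains. Decr2, the peroxisomal dienoyl-CoA reductase, gave 0.57 and 0.21, a mean of 0.39 ± 0.26 (SD, n = 2). It lies in row 81, and its block ratios were 0.23 and 0.46, with an interval from 0.08 to 0.61 and an adjusted p of 1 in limma. Decr1, the mitochondrial reductase, lay the other way at -0.35 and -0.02, with -0.11 and -0.16 at its second probe. Its block ratios were -0.23 and -0.0064.

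The isomerases had small ratios, with means from -0.13 to -0.03. Ech1, a dienoyl-CoA isomerase, gave -0.03 and -0.21, Eci1 of the mitochondrion gave 0.04 and -0.11, and Eci2, found in mitochondria and peroxisomes, gave -0.08 and -0.18. Eci2 stayed lower on both arrays as block ratios (-0.11 and -0.15), while Ech1 did not (0.07 and -0.33), and Eci1 had opposite signs (0.12 and -0.07).

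The electron transfer flavoprotein branch passes electrons from the dehydrogenases to ubiquinone. Its subunits gave 0.41 and -0.29 for Etfa and -0.05 and -0.25 for Etfb, and its ubiquinone oxidoreductase Etfdh gave 0.14 and -0.39. As block ratios the reported probes of all 3 had opposite signs on the arrays: Etfa -0.10 and 0.21, Etfb 0.10 and -0.28, Etfdh -0.36 and 0.11. For these probes of Etfa and Etfdh, in rows 4 and 5, the block ratios thus have the signs of both arrays exchanged. A dimmer Etfdh probe in row 22 gave 0.20 and -0.35, and -0.16 and -0.03 as block ratios. The dimmest Etfdh probe gave -0.03 and 0.06, and 0.03 and 0.0070 as block ratios.

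Among the 6 peroxisomal genes, Acox2 and Pex11a were lower on both arrays. Acox2, the oxidase for branched chains and bile acid intermediates, gave -0.37 and -0.18, a mean of -0.27 ± 0.14 (SD, n = 2). Its block ratios were -0.30 and -0.26, the interval ran from -0.53 to -0.04, and the adjusted p in limma was 1. Pex11a, a membrane protein of peroxisome division, gave -0.23 and -0.12 over 10 spots. Within blocks all 10 of its spots were below 0 on each array, from -0.32 to -0.17 on replicate 1 and from -0.21 to -0.04 on replicate 2. The spots of 1 array share an RNA sample and are not replicates, and the interval of the Pex11a block mean, -0.44 to 0.06, spans 0.

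The other peroxisomal members showed no common direction. Ehhadh, the bifunctional enzyme of straight chains, gave -0.05 and 0.16, and Hsd17b4, the bifunctional enzyme of branched chains, gave 0.41 and -0.38 in row 56. As block ratios Ehhadh was at 0.04 on both arrays and Hsd17b4 at -0.09 and 0.09. The thiolase genes Acaa1a (-0.18 and 0.09) and Acaa1b (0.06 and -0.11) are near-identical copies, so the value of either alone is uncertain. The other probes of Acaa1a gave -0.11 and -0.18, and -0.16 and 0.07. As block ratios Acaa1a was at -0.13 and 0.07 and Acaa1b at 0.04 and -0.08, both still with opposite signs.

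Acot12, a cytosolic acetyl-CoA thioesterase, had the highest mean ratio of the 39 members. Its background-subtracted signal was 101 in the knockout RNA and 39.2 in the wild-type RNA on replicate 1, and 74.3 against 45.9 on replicate 2, so the knockout RNA was brighter under either dye. The log2 ratios were 0.61 and 0.51, a mean of 0.56 ± 0.07 (SD, n = 2), or 1.47-fold, with an unadjusted p of 0.0156 and an adjusted p of 1 in limma. Its spot lies in row 404, and as block ratios the values were 0.64 and 0.47, with an adjusted p of 0.364.

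Acot12 is dim, and its size depended on how the background was treated. The processed ratios of the scanner software, which subtracts background without an offset, were 1.20 and 0.92, a mean of 1.06 ± 0.20 or 2.09-fold. On those ratios limma gave an adjusted p of 0.0469 for Acot12 and called 38 genes in all (0.2%), with Acot12 as the 1 member called. The call was marginal: on the deposited value table, the same ratios rounded, its adjusted p was 0.0562, and with a normexp offset of 0 it was 0.233. It was also the 1 member at least 1.5-fold apart on both arrays on those ratios, where 0.837% of all genes were. With spots marked as outliers kept in the background fit, its mean was 0.36.

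The other thioesterases hydrolyse longer acyl-CoA. Acot2, the mitochondrial form, gave -0.28 and -0.19, a mean of -0.23 ± 0.06 (SD, n = 2), and -0.15 and -0.29 as block ratios. Acot1, the cytosolic form, gave 0.59 and -0.26 in row 496, near the lower edge of the array, and 0.18 and -0.26 as block ratios. Acot1 and Acot2 are near-identical copies on chromosome 12, and the array may not tell them apart. Acot8, a peroxisomal form, gave 0.04 and -0.06, and 0.04 and -0.18 as block ratios.

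Of the remaining targets of PPAR alpha, Pdk4 and Vnn1 were higher on both arrays. Pdk4, the kinase that shuts off pyruvate dehydrogenase when fat is burned, gave 0.07 and 0.26, and 0.19 and 0.12 as block ratios. Vnn1, a pantetheinase of the gut, gave 0.07 and 0.29, and 0.22 and 0.25 as block ratios. Angptl4, a secreted inhibitor of lipoprotein lipase, gave 0.18 and -0.26 in row 524, and as block ratios 0.12 and 0.25. All 3 had block means between 0.16 and 0.23, and the intervals of all 3 span 0.

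The Cyp4a genes encode omega-hydroxylases of fatty acids. Cyp4a10 gave 0.77 and -0.24 with its brighter probe in row 498, and -0.69 and -0.01 with the dimmer one. As block ratios the brighter probe was at 0.38 and -0.24 and the dimmer at -0.62 and -0.09. The mean of the brighter Cyp4a10 probe was 0.27, and 0.07 as a block ratio, while that of the dimmer was -0.35 and -0.36. The other 2 probes were too dim to be tested. Cyp4a14 gave -0.04 and 0.18 at background-subtracted signals between 8.44 and 16.6, close to background. Its block ratios were -0.00075 and 0.18, and its processed ratios 0.02 and 0.96. Whether these probes also bind RNA of other Cyp4a genes was not tested, so neither value can be assigned firmly to 1 gene.

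**Figure D5:**
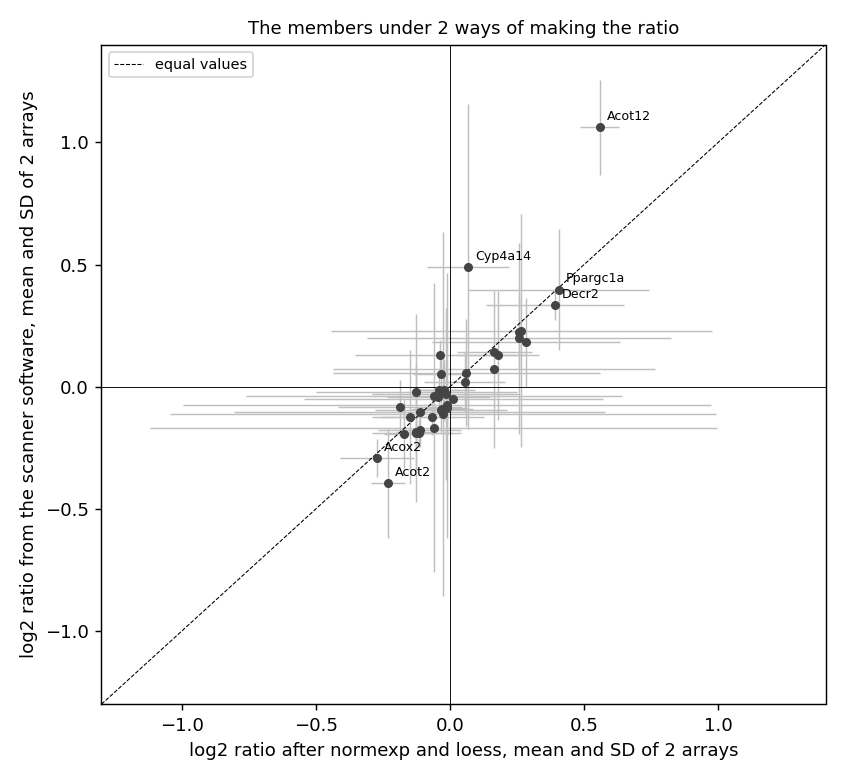
Mean log2 ratio of each member from the scanner software against that after normexp and loess, with bars for the SD of 2 arrays and a dashed line of equal values. Acot12 lies at 0.56 and 1.06, above the line, Cyp4a14 has the longest vertical bar among labelled genes, and most members lie near 0 on both axes.

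Of the 8 members with at least 2 tested probes, the probes of 4 had means of 1 sign. The direction on both arrays was kept under all 11 ways of processing by 8 members. The share of all genes tested that did so was not counted, so these 8 cannot be set apart from the array as a whole. Acot12 (means from 0.36 to 1.06), Ppara (0.19 to 0.26), Ppargc1a (0.23 to 0.41) and Pdk4 (0.06 to 0.18) were higher. Acot2 (-0.40 to -0.16), Acox2 (-0.32 to -0.27), Pex11a (-0.23 to -0.17) and Eci2 (-0.19 to -0.07) were lower. The settings share the same 2 arrays, so this describes the processing and adds no replication.

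Of 90 further genes of the pathway, 84 were tested. Among them 12 were higher on both arrays, 23 lower and 49 opposite, with a median of -0.01. These are 14.3% higher and 27.4% lower, against 16.9% and 18.1% of all genes. As block ratios 9 were higher (10.7%), 25 lower (29.8%) and 50 opposite, against 19.7% and 19.4% of all genes. Fabp1, the fatty acid binding protein of liver and proximal gut and a target of PPAR alpha, was the 1 gene of these at least 1.5-fold apart on both arrays. It gave 1.28 and 1.27, or 2.43-fold, with an adjusted p of 1 in limma, 0.023 as block ratios and 0.00833 on the processed ratios. Lct, a lactase and a marker of the proximal small intestine, was also higher (1.85 and 0.98). Of 7 tested markers of that region, Fabp1 and Lct among them, 4 were higher on both arrays and 1 lower. The shares over all genes were 16.9% and 18.1%. As block ratios 4 were higher and 2 lower, and on the processed ratios 3 were higher and 2 lower. Of 7 tested markers of the distal small intestine and colon, 2 were higher and 1 lower. A difference in the region sampled was not tested.

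By group, beside 16.9% higher and 18.1% lower of all genes, the 14 genes of activation and entry held 3 higher and 3 lower on both arrays (21.4% each), and the 13 other mitochondrial enzymes 0 higher and 5 lower (38.5%). The 17 tested further peroxisomal genes held 2 higher (11.8%) and 6 lower (35.3%). The 5 ketone body genes held 0 higher and 2 lower, and the 14 nuclear receptors and cofactors 3 and 3 (21.4% each). The 26 tested other PPAR alpha targets held 5 higher (19.2%) and 7 lower (26.9%). As block ratios the activation and entry genes held 1 higher and 6 lower, the other mitochondrial enzymes 1 and 5, and the further peroxisomal genes 1 and 3. The ketone body genes held 0 and 1, the nuclear receptors and cofactors 2 and 4, and the other PPAR alpha targets 4 and 8. Of all genes, 19.7% were higher and 19.4% lower as block ratios. The medians of these groups ran from -0.05 to 0.02, beside -0.01 for all genes.

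Promoter sequences from RefSeq (GRCm38.p6, 250 bases before to 50 after the start) were found for 30 members. Searched on both strands, the direct repeat that PPAR alpha binds, 2 copies of AGGTCA with 1 base between them, was in 0 of 31 member promoters and in 0.0396% of 32851 promoters in all. A looser form with copies written AGGNCA, which includes the first, was in 0 and in 0.381%. With shares this low, 0 of 31 cannot set the members apart from other genes. A single AGGTCA was in 5 of 31 (16.1%) and in 16.3% of all: Acadm, Echs1, Acadvl, Cpt1a and Acot12. It is shown for the highest and the widest-spread member, with the match in capitals, as read on the strand of the gene (TGACCT is AGGTCA on the other strand).
Acot12 promoter (chr13:91741384-91741443, plus strand): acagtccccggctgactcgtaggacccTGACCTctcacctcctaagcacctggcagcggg
Acadvl promoter (chr11:70015483-70015542, minus strand): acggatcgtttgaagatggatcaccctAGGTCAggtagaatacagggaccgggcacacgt
A match describes the letters alone, and these windows leave out enhancers and introns.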

How the data were processed

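Dual-colour Agilent arrays of mouse intestine RNA were scanned by the authors, and the deposited files, per the file headers, hold spot intensity and background intensity of each dye, log10 ratios of Cy5 over Cy3, the p-value of each deposited ratio (not used here), and flags, on mm9 positions. The submitters' processing notes name Agilent Feature Extraction 9.5; the file headers name 11.5.1.1. The deposited value table holds the same log10 ratio, rounded to within 5e-04. The members and lists were chosen with earlier results of these data known.

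The ratios were recomputed in R 4.3.3 with limma 3.58.1. Outlier-marked spots (210 and 294) were left out, intensity was corrected by normexp (offset 50, which draws ratios of dim spots toward 0), and the dye ratio was fitted by loess in each array, or within blocks of 19 by 29 spots. Control spots had no weight. Ratios were turned to knockout over wild type and converted to log2. Spots of a probe were averaged, and the brightest tested probe stood for a gene. A probe was tested if well above background for 1 genotype on both arrays. Limma set the mean of the arrays against 0 (1 residual degree of freedom, prior 3.01), and each p-value was adjusted by Benjamini-Hochberg over 18988 genes, with a threshold of 0.05. The fit and the block loess were run on simulated data. There the dye effect was set by the same blocks that the block loess fits, so its removal was fixed in advance. That run cannot tell how well the block loess takes off the offset by rows seen on these arrays. Every member is named. Other pathway genes are named if at least 1.5-fold apart in 1 genotype direction on both arrays. Markers are named if furthest apart, up to 3 a list, and further muscle and kidney markers to show a limit of their counts. The alternatives were no background correction, offset 0, median centring, processed ratios, the value table, no filter, marked spots kept, the mean of probes, a smooth surface taken off, and, chosen after the data were seen, block loess and the furthest of 10 spots left out.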

Additional observations from a re-analysis of the deposited data

How the results depend on the processing

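No further pairing was needed, because each array already holds both genotypes and the ratio within it, which limma used, is the pair. The count of members at least 1.5-fold apart on both arrays was 0 as reported and 1 (Acot12) without background correction, with an offset of 0, on the processed ratios and on the value table. Members called by limma numbered 1 on the processed ratios and 0 on the value table, where the adjusted p of Acot12 was 0.0562, and members lower on both arrays 15 on the processed ratios and on the value table, against 9. Other pathway genes at least 1.5-fold apart numbered 2 with marked spots kept, against 1. Leaving out 1 array moved the median of the members between -0.18 and 0.07. With the furthest spots left out, the block mean of Ppara was 0.194. Echs1 turned from 0.28 to -0.0138 with block loess. Over all genes, limma called 22 with an offset of 0, 38 on processed ratios, 36 on the value table, 14 with a surface taken off and 10 with block loess, against 0; genes at least 1.5-fold apart ranged from 24 to 159, and in a dye direction from 8 with block loess to 997 with median centring, against 199. The causes of the other changes were not tested. Ratios of dim probes such as those of Acot12, Acot2 and Cyp4a14 are limited by their signal over background.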
